A study of Mus musculus with 6 samples.

Results

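Mettl14 and 9 genes that act around it, the accessory subunits of the m6A writer complex and RNA-binding proteins described as m6A readers, were followed in mouse liver. The genes were picked by name: Mettl14, the accessory subunits Rbm15, Rbm15b, Zc3h13 and Cbll1, the separate methyltransferase Mettl16, and the RNA-binding proteins Hnrnpc, Hnrnpa2b1, Rbmx and Elavl1. They are 10 of the 18453 genes with any count in the files, and all 10 were among the 13431 genes with enough counts to be tested. Bulk RNA-seq was performed on the livers of 6 Mettl14f/f male mice, that is, every animal, controls included, carried floxed Mettl14 alleles. The mice were 8 weeks old when HFD (high fat diet) feeding began. After 10 weeks on the diet, 3 of them received AAV8-TBG-Cre through the tail vein and 3 received AAV8-TBG-GFP as control. RNA was taken from the liver 8 weeks after the injection. The labels call the first group METTL14 KO and the second WT, although both share the floxed alleles, the diet and an AAV8 vector. The TBG (thyroxine-binding globulin) promoter drives Cre in hepatocytes, so Cre is not directed to the other cells of the liver, which keep intact Mettl14.

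N6-methyladenosine (m6A) is a methyl mark placed on adenosines of nascent mRNA by a nuclear complex in which METTL3 is the catalytic subunit and METTL14 the partner that holds the RNA. WTAP, VIRMA, ZC3H13, CBLL1 (also called HAKAI) and the related adaptors RBM15 and RBM15B form the accessory part, which keeps the complex in the nucleus and brings it to its targets. METTL16 is a separate methyltransferase that acts on a few RNAs, among them Mat2a mRNA, which encodes the enzyme making the methyl donor S-adenosylmethionine in most tissues. Readers bind methylated RNA directly or gain access to it because the mark loosens RNA structure, and HNRNPC, HNRNPA2B1, RBMX and ELAVL1 (HuR) are abundant RNA-binding proteins with such reported roles.

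Each library held between 20356440 and 21010508 assigned counts. The library names in the labels come in a short form (AAV8-TBG-GFP replicates 1 and 2, AAV8-TBG-Cre replicate 1) and a long form (AAV8-TBG-GFP replicate 3, AAV8-TBG-Cre replicates 2 and 3). Neither the labels nor the methods say what the form means. In a principal component analysis, the first component (54.1% of the variance) separated the vectors, and all 3 libraries with a long name lay below the 3 with a short name on the second (18.6%). AAV8-TBG-Cre replicate 2 stood farthest out on the first component. The hepatocyte markers summed to 103045 to 119367 CPM (counts relative to the library total, here scaled by TMM, which corrects that total for a few very abundant genes) in the AAV8-TBG-GFP livers and 82652 to 104591 in the AAV8-TBG-Cre livers, and none of the 7 was at 0 in any library. All 9 cholangiocyte markers had a higher mean in the AAV8-TBG-Cre livers, with sums of 73.6 to 130 CPM against 312 to 588 CPM. Sums were also higher there for 7 macrophage markers (120 to 151 against 173 to 239 CPM) and 7 stellate cell and fibroblast markers (216 to 324 against 401 to 832 CPM). Not every marker rose: 6 of the 7 macrophage and 5 of the 7 stellate cell and fibroblast markers had log2 fold changes above 0. The T and NK cell, B cell and neutrophil lists each summed to at most 9.93 CPM in any library, with Gzma, Ms4a1, Mpo and Retnlg at 0 in at least 1 library. In bulk tissue, fewer cells of a type and less RNA per cell cannot be told apart.

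The 10 genes spanned a wide range of levels in the liver. Levels between genes were compared as FPKM, which corrects the fragment number of a gene for its length and for the depth of the library. Hnrnpa2b1, a packaging protein of nuclear RNA, was highest at 65.3 ± 6.24 FPKM (SD over 6 livers), and Hnrnpc, which coats nascent transcripts, followed at 31.8 ± 3.30 FPKM. Rbmx, an X-linked splicing factor, reached 6.21 ± 0.975 FPKM. Elavl1, which stabilizes mRNAs with AU-rich elements, stood at 5.77 ± 1.29 FPKM and Mettl16 at 4.59 ± 0.353 FPKM. Below them came Rbm15b (3.52 ± 1.23 FPKM), Zc3h13 (3.52 ± 0.344 FPKM), Cbll1 (3.15 ± 0.254 FPKM) and Rbm15 (2.98 ± 0.426 FPKM). Mettl14 was the lowest of the 10 at 2.13 ± 0.242 FPKM, higher than 31.5% of the tested genes. For comparison, Wtap had 10.9 FPKM, Mettl3 5.31 FPKM and Virma 3.24 FPKM, so Mettl14 was also below the rest of the writer core. From Rbmx down to Rbm15, each gene's range over the 6 livers overlapped that of the next in the order. Within every liver, however, Elavl1 was above Mettl16 and Zc3h13 above Cbll1, while the order of the other neighbours varied between livers. Hnrnpa2b1, Hnrnpc and Mettl14 were set apart, as the highest Mettl14 value (2.40 FPKM) was below the lowest of Rbm15 (2.44 FPKM).

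**Figure D1:**
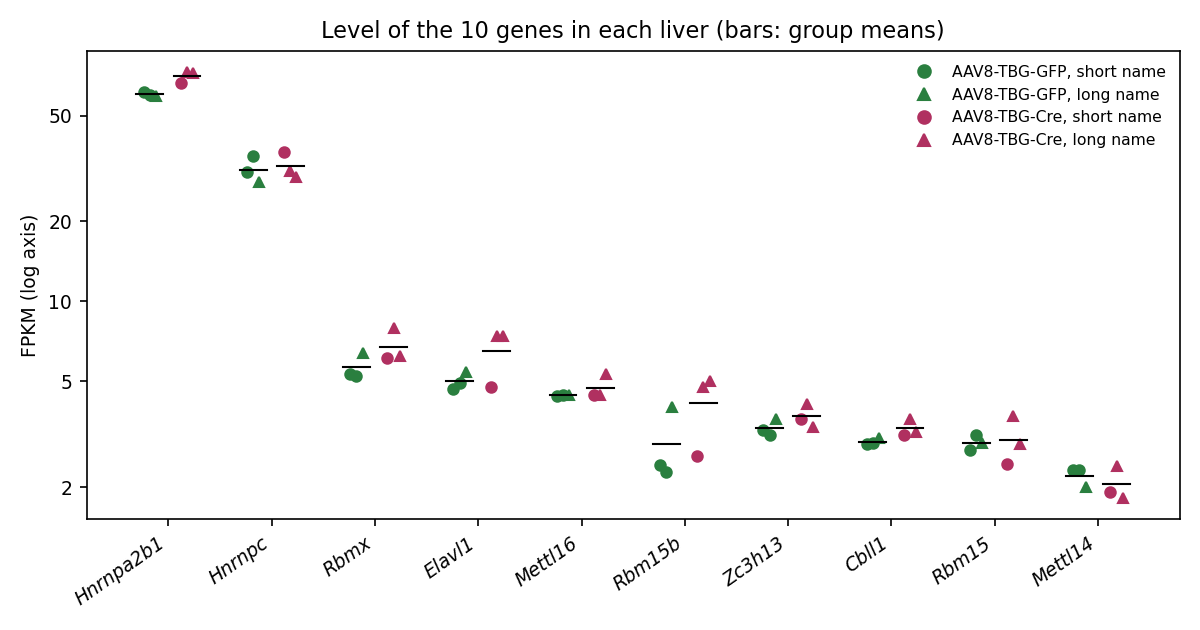
FPKM (log axis) of the 10 genes, ordered by mean level, in each of the 6 livers; green marks AAV8-TBG-GFP, red AAV8-TBG-Cre, circles short and triangles long library names, and bars the group means. Hnrnpa2b1 (65.3 FPKM) and Mettl14 (2.13 FPKM) form the ends of the order, and Rbm15b separates circles from triangles within both vectors.

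To ask whether hepatocyte-directed Cre changed this group of genes, AAV8-TBG-Cre livers were compared with AAV8-TBG-GFP livers in edgeR's quasi-likelihood test over all 13431 genes. None of the 10 passed at the threshold of unadjusted p under 0.05 with a fold of at least 1.2, whereas 2747 of all tested genes (20.5%) did. At a Benjamini-Hochberg adjusted p under 0.05 the count was again 0 of 10, against 125 genes (0.931%) in all, and 0 of the 10 had an unadjusted p under 0.05. DESeq2 also called 0 of the 10 by either rule. Of the 10 log2 fold changes, 4 were positive, and they ran from -0.29 (Mettl14) to 0.33 (Rbm15b). Their median size without sign was 0.10, beside 0.21 over all tested genes. TMM-scaled CPM did not overlap between the vectors for 1 of the 10, Mettl14, and for 3627 (27%) of all tested genes.

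**Figure D2:**
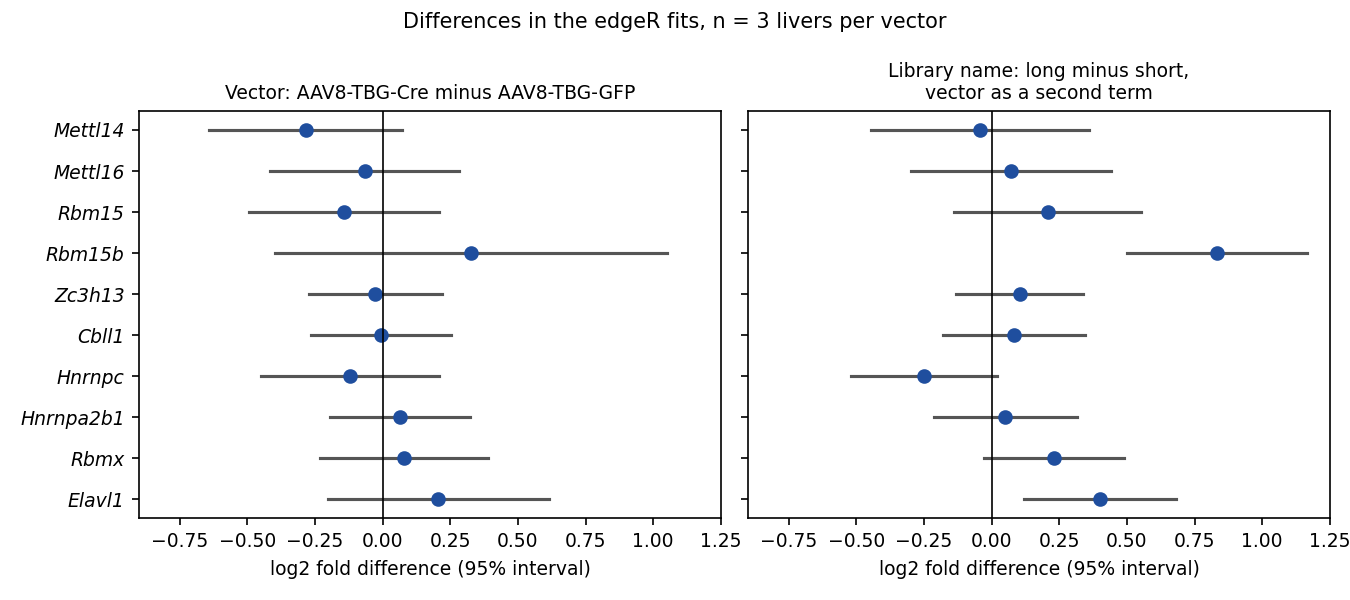
Log2 fold differences of the 10 genes with 95% intervals in the edgeR fits (n = 3 livers per vector), AAV8-TBG-Cre minus AAV8-TBG-GFP on the left, and long minus short library name with vector as a second term on the right. Every interval on the left spans 0, while on the right those of Rbm15b (0.50 to 1.16) and Elavl1 (0.12 to 0.68) lie above 0.

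Mettl14 (NCBI gene 210529, chromosome 3 from 123368295 to 123385990 in GRCm38.p6, the mm10 assembly) was the targeted gene. Its level was 6.30, 6.43 and 5.81 CPM after TMM scaling in the AAV8-TBG-GFP livers and 4.96, 5.38 and 4.86 CPM in the AAV8-TBG-Cre livers. Every AAV8-TBG-Cre liver was below every control, with means of 5.07 ± 0.275 and 6.18 ± 0.326 CPM (SD, n = 3 each). The log2 fold change was -0.29 (SE 0.15), with a 95% interval from 0.641-fold to 1.05-fold and an adjusted p of 0.337 in edgeR's quasi-likelihood test with Benjamini-Hochberg adjustment. The exact two-sided permutation test on CPM gave p = 0.1, the smallest that 3 livers against 3 allow. The separation depended on the scale. In FPKM the controls were at 2.31, 2.31 and 2.01 and the AAV8-TBG-Cre livers at 1.92, 2.40 and 1.82, and the top value belonged to AAV8-TBG-Cre replicate 2. That library also had the largest TMM factor, 1.18, beside 0.913 to 1.02 in the others. Between 101 and 131 reads stood behind each value, for which counting error alone gives a coefficient of variation of 9.28%, more than was seen within either group (5.27% and 5.43%). The libraries labelled AAV8-TBG-Cre thus kept most of the whole-transcript Mettl14 signal. Counts were given for 1 transcript of 2625 nucleotides, and they do not show whether the floxed segment was present in it. The paper reports that METTL14 protein and total RNA m6A were lower in the liver after the same diet and vector. Those measures are unlike whole-transcript RNA and were taken at an earlier time after injection. Of the marker sums given above, those of cholangiocytes, macrophages and stellate cells did not overlap between the vectors, and those of hepatocytes did. The low B cell sums did not overlap either (1.33 to 1.47 CPM in the controls against 1.59 to 3.96 CPM), while those of T and NK cells and of neutrophils overlapped. All 6 endothelial markers had log2 fold changes below 0 (median -0.29), with overlapping sums of 122 to 188 CPM in the controls and 123 to 147 CPM after AAV8-TBG-Cre. The part of these cell types in the Mettl14 values was not tested.

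Among the accessory subunits, Rbm15 and Rbm15b encode related adaptors that bind U-rich RNA and also serve X inactivation. Rbm15 (chromosome 3) was at 9.40, 10.9 and 10.6 CPM in the AAV8-TBG-GFP livers and 7.87, 10.4 and 9.72 CPM in the AAV8-TBG-Cre livers. The ranges overlapped and the log2 fold change was -0.14 (SE 0.15). Rbm15b (chromosome 9) was at 7.62, 7.29 and 13.4 CPM in the controls and 7.83, 12.3 and 15.4 CPM after AAV8-TBG-Cre. Both groups contained low and high livers, so the log2 fold change of 0.33 came with a wide 95% interval of -0.40 to 1.05 and an edgeR adjusted p of 0.597. The coefficient of variation of Rbm15b within a vector group was 36.4% and 32.0%, whereas counting error accounts for 6.71%. Zc3h13, a large zinc-finger protein that anchors the complex in the nucleus, ranged from 20.6 to 24.6 CPM with a log2 fold change of -0.03 (SE 0.11). Cbll1, a RING-finger E3 ubiquitin ligase, ranged from 12.2 to 13.6 CPM with a log2 fold change of -0.01 (SE 0.11). The 95% intervals of Zc3h13 (0.827-fold to 1.16-fold) and Cbll1 (0.833-fold to 1.19-fold) were among the narrowest of the set.

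Mettl16, the separate methyltransferase, was at 12.5, 12.8 and 13.3 CPM in the AAV8-TBG-GFP livers and 11.9, 10.4 and 14.7 CPM in the AAV8-TBG-Cre livers. The AAV8-TBG-Cre livers were both below and above all controls, and the log2 fold change was -0.07 (SE 0.15; 0.750-fold to 1.22-fold). In raw expected counts, 5 of the 6 livers lay between 246 and 255, and AAV8-TBG-Cre replicate 3 had 305.

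Among the RNA-binding proteins, Hnrnpc was at 89.2, 105 and 87.0 CPM in the controls and 100.3, 74.3 and 83.7 CPM after AAV8-TBG-Cre, with overlapping ranges and a log2 fold change of -0.12 (SE 0.14). Rbmx was at 13.4, 13.4 and 17.0 CPM in the controls and 14.6, 16.3 and 15.3 CPM after AAV8-TBG-Cre, again with overlap and a log2 fold change of 0.08 (SE 0.13). Rbmx reads can be shared with its intronless copy Rbmxl1, and how the counting split them was not tested. Hnrnpa2b1 was at 145, 143 and 148 CPM in the controls and 148, 141 and 167 CPM after AAV8-TBG-Cre, with a log2 fold change of 0.06 (SE 0.11). On this scale only AAV8-TBG-Cre replicate 3 exceeded all controls. In FPKM, Hnrnpa2b1 did not overlap, with 61.3, 59.8 and 59.2 in the controls and 66.1, 72.9 and 72.5 after AAV8-TBG-Cre. In limma on log2(FPKM + 1) its difference was 0.23 (adjusted p = 0.220), but on that scale the median difference of all tested genes was 0.11 and the median gene-by-gene shift from the edgeR fit 0.15, so relative to the other genes it was smaller. Cbll1 also ceased to overlap in FPKM, with 2.91 to 3.06 against 3.15 to 3.60. In limma on log2(FPKM + 1) its difference was 0.12, near the median of 0.11 over all tested genes. The share of all genes that did not overlap in FPKM was not counted.

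Elavl1 was at 29.7, 31.7 and 36.4 CPM in the AAV8-TBG-GFP livers and 28.6, 38.4 and 45.7 CPM in the AAV8-TBG-Cre livers. AAV8-TBG-Cre replicate 1 was the lowest of all 6 and the other 2 livers of its group were the highest, and the log2 fold change was 0.21 (SE 0.18, edgeR adjusted p = 0.550). Without AAV8-TBG-Cre replicate 1 it was 0.37, which passed the unadjusted threshold in edgeR (adjusted p = 0.127), and Elavl1 was the only one of the 10 to do so when any 1 library was left out. In that fit 3730 of all genes passed the same threshold.

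A ratio of 2 genes within a library does not depend on how libraries are scaled to each other. Mettl14 to Mettl3, the partners of the writer core, had log2 FPKM ratios of -1.12, -1.16 and -1.25 in the AAV8-TBG-GFP livers and -1.48, -1.38 and -1.53 in the AAV8-TBG-Cre livers. The groups did not overlap, and the mean ratio went from 0.442 to 0.362, a log2 difference of -0.29. In the exact permutation test p was 0.1, the smallest possible, and 0.6 after Benjamini-Hochberg adjustment over the 6 ratios examined. The same ratio differed by -0.34 among the libraries with a short name and by -0.21 among those with a long name. Mettl3 itself hardly moved, with 10.6 to 11.1 CPM in the controls, 10.7 to 10.8 CPM after AAV8-TBG-Cre and a log2 fold change of 0.00 (SE 0.11; 95% interval -0.26 to 0.26). The ratio of Mettl14 to Mettl16 differed by -0.21 with overlap (exact permutation p = 0.4), and that of Zc3h13 to Cbll1 by -0.02 (exact permutation p = 0.7). The ratios of Rbm15 to Rbm15b (-0.48), Hnrnpc to Hnrnpa2b1 (-0.19) and Rbmx to Hnrnpc (0.21) also overlapped between the vectors. These differences moved with single libraries: leaving out 1 gave -0.37 to -0.044 for Mettl14 to Mettl16 (the latter without AAV8-TBG-Cre replicate 3), -0.74 to -0.28 for Rbm15 to Rbm15b, -0.32 to -0.096 for Hnrnpc to Hnrnpa2b1, 0.068 to 0.38 for Rbmx to Hnrnpc and -0.054 to 0.024 for Zc3h13 to Cbll1, beside -0.33 to -0.25 for Mettl14 to Mettl3. The 3 ratios of Rbm15 to Rbm15b, Hnrnpc to Hnrnpa2b1 and Rbmx to Hnrnpc separated the forms of the library name instead. Rbm15 to Rbm15b had a mean ratio of 1.13 in libraries with a short name and 0.691 in those with a long name, Hnrnpc to Hnrnpa2b1 had 0.545 and 0.434, and Rbmx to Hnrnpc had 0.163 and 0.231, without overlap in each case. Rbm15b, Hnrnpc and Rbmx each also separated the forms alone in TMM-scaled CPM, as given below. The share of all gene pairs whose ratio separates the forms was not counted, and the ratios were not tested between the forms.

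**Figure D3:**
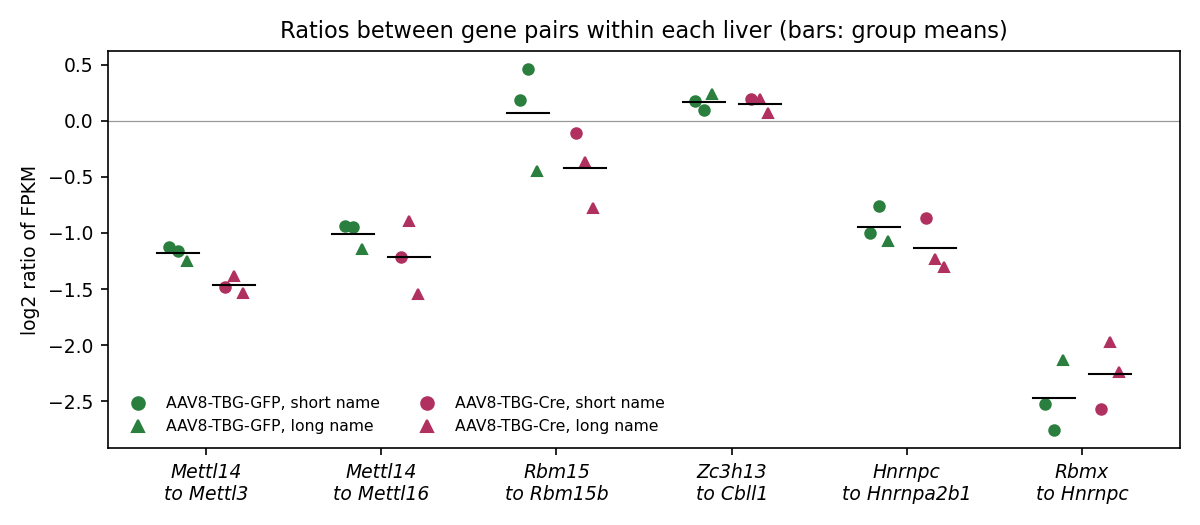
Log2 ratio of FPKM between 6 pairs of genes within each liver; green marks AAV8-TBG-GFP, red AAV8-TBG-Cre, circles short and triangles long library names, and bars the group means. Mettl14 to Mettl3 separates the vectors (means -1.18 and -1.46), while the ratios of Rbm15 to Rbm15b, Hnrnpc to Hnrnpa2b1 and Rbmx to Hnrnpc separate circles from triangles.

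In TMM-scaled CPM, Rbm15b, Elavl1, Hnrnpc and Rbmx overlapped between the vectors but not between the forms of the library name. Rbm15b was at 7.62, 7.29 and 7.83 CPM in the 3 libraries with a short name and at 13.4, 12.3 and 15.4 CPM in the 3 with a long name. The 2 sets were far apart (7.58 ± 0.268 and 13.7 ± 1.54 CPM, SD, n = 3), and AAV8-TBG-GFP and AAV8-TBG-Cre livers lay on both sides. Within the short names the log2 ratio of AAV8-TBG-Cre to AAV8-TBG-GFP was 0.07 and within the long names 0.05, and the fold change for the vector was 0.06 on the log2 scale with the form as a covariate. To size the difference, the form was entered beside the vector in the edgeR fit, a step added after the levels of Rbm15b and Elavl1 had been seen, so its p-values for these genes are descriptive. Rbm15b was 1.78-fold higher in libraries with a long name (log2 difference 0.83, SE 0.14, edgeR adjusted p = 0.0455). With any 1 library left out the difference was 0.76 to 0.89 but the edgeR adjusted p rose to between 0.0542 and 0.245, and in limma on log2(FPKM + 1) it was 0.0548. Elavl1 was at 29.7, 31.7 and 28.6 CPM with a short name and 36.4, 38.4 and 45.7 CPM with a long name, again without overlap. Its log2 difference was 0.40 (SE 0.12, edgeR adjusted p = 0.161), and without AAV8-TBG-Cre replicate 1 it was 0.23 (edgeR adjusted p = 0.712). The log2 ratio of AAV8-TBG-Cre to AAV8-TBG-GFP for Elavl1 was -0.10 within the short names and 0.21 within the long names. Hnrnpc was lower with a long name (98.0 ± 7.91 against 81.7 ± 6.54 CPM) and Rbmx was higher (13.8 ± 0.700 against 16.2 ± 0.861 CPM), both without overlap on this scale. Their edgeR adjusted p-values were 0.333 and 0.347. The separation of Hnrnpc depended on the scale. In FPKM it was at 30.65, 35.27 and 36.35 with a short name and 28.09, 31.01 and 29.35 with a long name, which overlap.

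In all, 2 of the 10 genes passed unadjusted p under 0.05 with a fold of at least 1.2 between the forms of the name. This count was near the share of 15.9% over all tested genes. At adjusted p under 0.05 it was 1 of 10, beside 1.39%. In TMM-scaled CPM, 4 of 10 did not overlap, beside 21.6%. Mettl14 was not among them. Its log2 difference between the forms was -0.04 (SE 0.17), and its ratio of AAV8-TBG-Cre to AAV8-TBG-GFP was -0.36 within the short names and -0.18 within the long names on the log2 scale. The 6 endothelial markers summed to 147 to 188 CPM with a short name and 122 to 136 CPM with a long name, and none was at 0; their part in the differences was not tested. The sums for cholangiocyte, macrophage, stellate cell and hepatocyte markers overlapped between the forms.

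**Figure D4:**
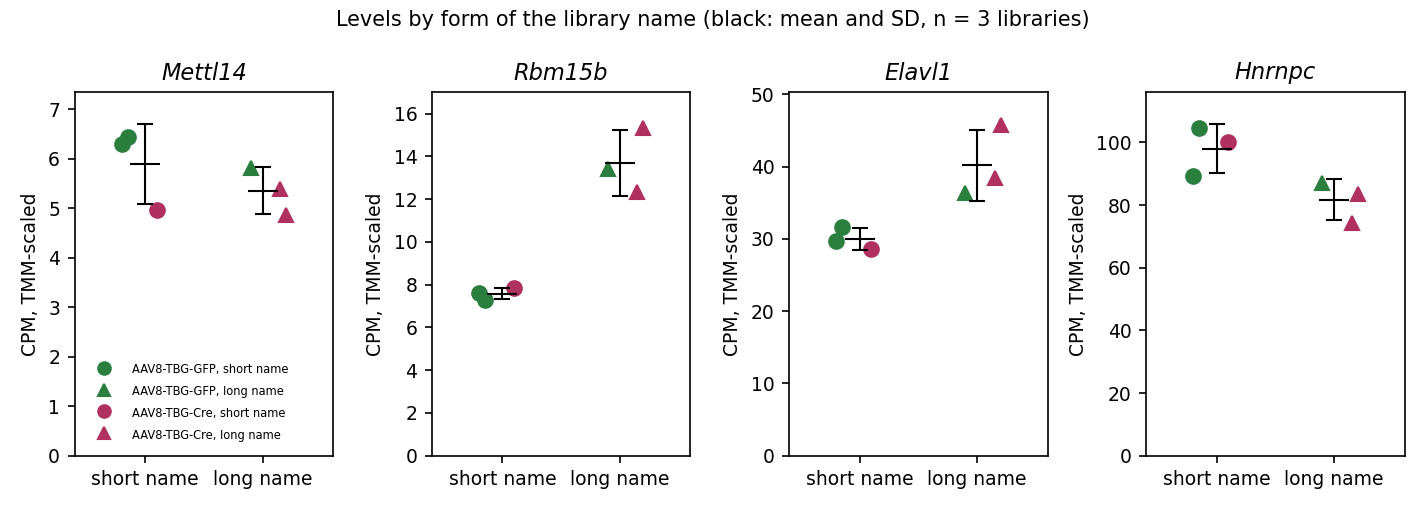
TMM-scaled CPM of Mettl14, Rbm15b, Elavl1 and Hnrnpc in libraries with a short or a long name (n = 3 each, black lines mean and SD); green marks AAV8-TBG-GFP and red AAV8-TBG-Cre. Rbm15b (7.58 against 13.7 CPM) and Elavl1 (30.0 against 40.2 CPM) are higher with a long name in both vectors, while Mettl14 overlaps.

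Rbm15b and Elavl1 were also the closest pair among the 45 pairs of the 10 genes when each gene's log2 CPM profile over the 6 livers was standardised (Euclidean distance 0.861), followed by Rbm15b and Rbmx (1.30). Both separated the forms of the name, which brings their profiles together, and among all genes compared in this way Rbm15b ranked only 177 in nearness to Elavl1 and Elavl1 233 in nearness to Rbm15b. As these were the 2 genes past the unadjusted threshold between the forms, the bases before their start sites are shown, taken from RefSeq for GRCm38.p6. Both lie on the minus strand, at chr9:106887076-106887325 for Rbm15b and chr8:4325141-4325350 for Elavl1. Each is written 5′ to 3′ with matches to the searched motifs in capitals, and the 40 bases nearest the Elavl1 start site are not shown.
Rbm15b: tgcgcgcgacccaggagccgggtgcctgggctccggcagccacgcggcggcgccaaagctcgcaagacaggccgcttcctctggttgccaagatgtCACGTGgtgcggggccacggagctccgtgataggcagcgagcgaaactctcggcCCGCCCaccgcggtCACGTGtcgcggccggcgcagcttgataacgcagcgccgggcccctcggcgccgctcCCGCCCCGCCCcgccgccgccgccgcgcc
Elavl1: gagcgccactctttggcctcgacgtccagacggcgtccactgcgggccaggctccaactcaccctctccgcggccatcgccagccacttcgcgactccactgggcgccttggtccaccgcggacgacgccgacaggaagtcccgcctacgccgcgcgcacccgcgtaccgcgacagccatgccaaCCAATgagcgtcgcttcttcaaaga
Motifs were searched on both strands in the 250 bases before the start site, and promoters were found for 9 of the 10 genes (11 start sites). The Rbm15b window held 3 GC boxes (GGGCGG, read as CCGCCC on the printed strand, with the last 2 sharing 1 base) beginning at positions -100, -29 and -24, and 2 E-boxes (CACGTG) at -154 and -86. The Elavl1 window held 2 CCAAT boxes (CCAAT) at -65 and -34, of which the first is in the printed stretch. The second is in the 40 bases not shown, which lie within the annotated borders of the gene. Of all 32851 promoter windows in the table, 32.7% held a GC box, 6.02% this E-box and 33.8% a CCAAT box. Neither window held TATAAA (12.4% of all windows), TGACGTCA (1.55%) or CCGGAAG (6.91%), and no motif was found in both windows. The share of G and C was 76.0% for Rbm15b and 67.6% for Elavl1, beside a median of 52.4% over all windows.

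Isoform use was examined for the 4 genes with several RefSeq transcripts; the other 6 had 1 transcript each in the files, with counts within 0.02 of a whole number in every library. Hnrnpa2b1 was steady, with its coding transcript NM_016806 (2265 nucleotides) at 72.9%, 70.6% and 72.3% of the gene's counts in the AAV8-TBG-GFP livers and 73.2%, 71.5% and 71.9% in the AAV8-TBG-Cre livers. The means were 71.9 ± 1.24% and 72.2 ± 0.874%, which did not differ beyond the spread (exact permutation p = 0.9). The rest belonged to the noncoding transcript NR_104468. Hnrnpc divided its counts over 5 transcripts of 2779 to 2844 nucleotides, and the main one, NM_001170983, took 26.3% to 39.3% in the controls and 30.4% to 51.0% after AAV8-TBG-Cre (exact permutation p = 0.5). For Rbmx, NM_011252 took 36.8%, 71.9% and 70.8% in the controls and 29.6%, 0% and 69.1% after AAV8-TBG-Cre (exact permutation p = 0.2). Its share was exchanged with NM_001166623, which differs from it by 3 nucleotides in length (2440 against 2437) and was listed at 0 in 3 of the 6 libraries. The noncoding Rbmx transcript NR_029425 was less variable, at 28.1% to 35.3% in the 6 livers. For Cbll1, NM_001253847 held at least 97.9% of the counts in 5 livers and 65.3% in AAV8-TBG-GFP replicate 1, where the rest went to NM_134048, a transcript shorter by 3 nucleotides (4004 against 4007; exact permutation p = 0.4). After adjustment over the 4 tests by Benjamini-Hochberg, the exact permutation p-values were 0.667 to 0.9. The differences in share, AAV8-TBG-Cre minus AAV8-TBG-GFP, depended on single libraries. Leaving out 1 gave -45.0 to -10.4 percentage points for Rbmx (the latter without AAV8-TBG-Cre replicate 2), 1.04 to 18.4 for Cbll1 (the former without AAV8-TBG-GFP replicate 1), 0.545 to 10.9 for Hnrnpc (the former without AAV8-TBG-Cre replicate 1) and -0.471 to 0.720 for Hnrnpa2b1.

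**Figure D5:**
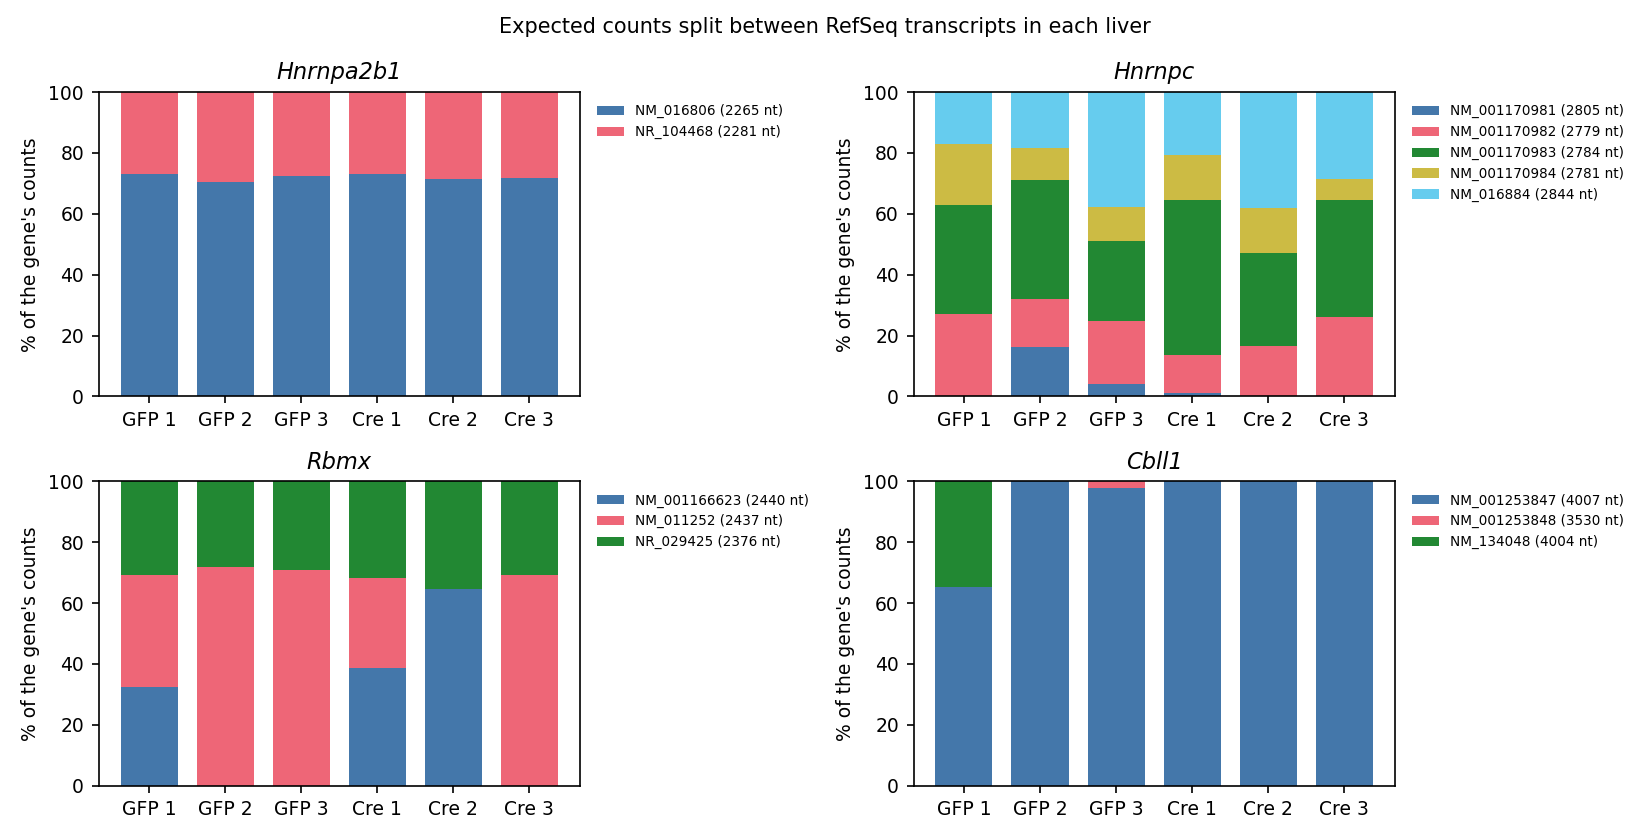
Percent of each gene's expected counts given to each RefSeq transcript (colours, length in nucleotides in the legend) in the 6 livers for Hnrnpa2b1, Hnrnpc, Rbmx and Cbll1. Hnrnpa2b1 keeps 70.6% to 73.2% in 1 transcript, while for Rbmx the transcripts of 2437 and 2440 nucleotides exchange counts, with NM_011252 at 0% in AAV8-TBG-Cre replicate 2.

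The other genes of the m6A pathway were taken from a list of 63 genes, of which 61 were in the files and 59 were tested. Igf2bp1, Elavl2, Elavl3 and Elavl4 were not tested. At unadjusted p under 0.05 with a fold of at least 1.2 in edgeR, 1 gene rose and 2 fell between the vectors, that is, 3 of 59 beside 20.5% of all tested genes. At adjusted p under 0.05 it was 0 of 59 in edgeR, and also in DESeq2. The median log2 fold change of the list was 0.00, and the median without sign was 0.10. In the writer core, Wtap, which recruits the catalytic pair to nuclear speckles, had a log2 fold change of 0.08 (SE 0.10), and Virma, the scaffold, -0.01 (SE 0.11).

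Hnrnpa1, a splicing repressor of the same family as Hnrnpa2b1, was at 26.7, 26.9 and 31.2 CPM in the AAV8-TBG-GFP livers and 35.3, 38.4 and 37.5 CPM in the AAV8-TBG-Cre livers. The groups did not overlap, and it rose by 0.39 on the log2 scale (SE 0.10, edgeR adjusted p = 0.0962), or by 0.34 once a name-form term was added. G3bp2, a stress granule protein, fell by 0.28 (edgeR adjusted p = 0.214), with controls at 73.7, 84.9 and 89.5 CPM and AAV8-TBG-Cre livers at 63.8, 71.1 and 69.7 CPM. Ahcyl2, related to the hydrolase that removes S-adenosylhomocysteine, fell by 0.27 (edgeR adjusted p = 0.218). When 1 library was left out in turn, Hnrnpa1 passed in all 6 fits, G3bp2 in 2 (without AAV8-TBG-GFP replicate 1 or AAV8-TBG-Cre replicate 2) and Ahcyl2 in 1 (without AAV8-TBG-Cre replicate 2). Hnrnpa1 also passed in every other alternative at this fold. G3bp2 did not pass after upper quartile scaling, with the stricter count filter or in limma on FPKM, and Ahcyl2 did not pass in these or after RLE scaling, in DESeq2 or with the replicate block. The members with the smallest p in the remaining classes had log2 fold changes of -0.22 (Mettl5, the 18S rRNA methyltransferase), -0.19 (the eraser Fto), 0.13 (the nuclear reader Ythdc1), 0.38 (Igf2bp3, SE 0.49, at 0.26 to 0.91 CPM) and 0.10 (Rbmxl1), and did not pass (edgeR adjusted p of 0.351 to 0.734). Between the forms of the library name, 7 of the 59 were higher and 3 lower by the same rule (edgeR, beside 15.9% of all genes). Mat2a, a methyl donor enzyme named above, was the only one of them at adjusted p under 0.05 (log2 difference 0.60, SE 0.09, edgeR adjusted p = 0.0357). Mat1a, also on the list, was more abundant in these livers, at 917 to 1289 FPKM against 25.8 to 45.7 FPKM for Mat2a. Mat2a was at 89.6, 88.9 and 71.4 CPM with a short name and 136, 110 and 106 CPM with a long name. Its log2 fold change for the vector was -0.13 (SE 0.22, edgeR adjusted p = 0.783), but with the name form in the fit it was -0.33 (SE 0.09), which passed the unadjusted threshold (edgeR adjusted p = 0.121).

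Over the 6 livers, the profile most like that of Mettl14 among 11295 genes belonged to Slc1a2, a glutamate transporter (Euclidean distance 0.369 between standardised log2 CPM). Sema5b (0.398), Sumf1 (0.408), Col27a1 (0.410) and Snhg11 (0.468) came next. All 5 had lower means in the AAV8-TBG-Cre livers, which follows from how they were picked, as every Mettl14 CPM there was below every control. Slc1a2 went from 282 ± 25.6 to 197 ± 22.7 CPM and Sema5b, the steepest of them, from 18.7 ± 5.19 to 3.33 ± 1.05 CPM (SD, n = 3). Among the 10 genes, the nearest to Mettl14 was Rbm15 (2.15) and the farthest Hnrnpa2b1 (4.01).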

How the data were processed

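Members and lists were chosen with earlier results of these data known. For each of the 6 liver libraries, the authors deposited an expected count per RefSeq transcript, not normalized and not always whole, and FPKM per gene, scaled by transcript length and mapped fragments. The submitters' processing notes name HISAT2, Bowtie2, RSEM and mm10, without versions; the methods of the study name STAR, HTSeq and DESeq2. Counting by strand is not given in the sources used here.

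Expected counts were summed per NCBI gene ID, rounded, scaled by TMM, filtered by filterByExpr and tested with edgeR 4.0.16 (R 4.3.3) quasi-likelihood, with vector as the only term and Benjamini-Hochberg adjustment over 13431 genes. Totals of 20356440 to 21010508 counts per library leave counting errors of 1.80% to 9.28% for the 10 genes. Ratios and isoform shares were tested by exact two-sided permutation in Python 3.11.15 with SciPy 1.17.1. Each library was taken as 1 mouse, and p-values measure the spread between libraries. Replicates of a group differed by more than sampling noise (chi-square per gene of at least 24.9). Alternatives were RLE and upper quartile scaling, DESeq2 1.42.0, other count filters, the replicate number or the name form as a term, limma 3.58.1 on log2(FPKM + 1) or log2(FPKM + 0.1), a fold of 1.5 and leaving out each library. Genes named are the 10, Mettl3, Wtap, Virma, list genes with p under 0.05 for the vector, the smallest p per class and the 5 nearest profiles to Mettl14. Mat1a, Mat2a and Hnrnph1 were named after their values were seen. The scripts were tested on simulated data.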

Additional observations from a re-analysis of the deposited data

How the results depend on the processing

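Mettl14 stayed lower and uncalled in all 16 alternatives (-0.34 to -0.079 on the log2 scale), and Rbm15b (0.056 to 0.65), Rbmx (0.0093 to 0.25) and Elavl1 (0.039 to 0.37) stayed higher. Small differences changed sign without a call. In limma on log2(FPKM + 1), with or without a filter, and on log2(FPKM + 0.1), Mettl16 was 0.074 and 0.087, Rbm15 0.017 and 0.018, Zc3h13 0.11 and 0.14, Cbll1 0.12 and 0.16, and Hnrnpc 0.040 and 0.041; the median gene-by-gene shift on that scale was 0.15 to 0.16. Upper quartile scaling gave 0.037 for Zc3h13 and 0.057 for Cbll1, and at least 10 counts in every library gave 0.010 for Cbll1. Leaving out 1 library gave -0.21 to 0.043 for Mettl16, -0.23 to -0.037 for Rbm15, -0.25 to -0.029 for Hnrnpc, -0.078 to 0.045 for Zc3h13, -0.044 to 0.029 for Cbll1 and -0.012 to 0.11 for Hnrnpa2b1. Between the name forms, an alternative added after the data were seen, it gave -0.15 to 0.051 for Mettl14, -0.044 to 0.17 for Mettl16, -0.025 to 0.22 for Zc3h13 and -0.0066 to 0.094 for Hnrnpa2b1. The cause of these changes was not tested.

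Leaving out 1 library called 0 to 1 of the 10 genes (1 without AAV8-TBG-Cre replicate 1), beside 1899 to 3730 of all genes. It called 1 to 6 of the other pathway genes, with 6 without AAV8-TBG-Cre replicate 1, where 3730 of all genes passed. The count was 1 each without AAV8-TBG-GFP replicate 2 or AAV8-TBG-Cre replicate 3, beside 2079 and 2485 of all genes. At adjusted p under 0.05 it was 0 to 1. The 1 was Hnrnph1 without AAV8-TBG-Cre replicate 1 (0.52, edgeR adjusted p = 0.0473), where 928 of all genes passed. Of the other pathway genes, upper quartile scaling and the stricter count filter called 1, beside 2659 and 2371 of all genes. Limma on FPKM called 7, 7 and 6, all higher, beside 2245, 2371 and 2383 of all genes, of which 83.7% to 84.7% were higher. A fold of 1.5 called 0. Over all genes, a fold of 1.5 called 1699. At adjusted p under 0.05, where the main count was 125, upper quartile scaling called 66, DESeq2 1157, no filter on low counts 372, the stricter filter 76, the name form as a covariate 214, limma on FPKM 22, 27 (pseudocount 0.1) and 9 (no filter), and leaving out 1 library 0 to 928: 7, 0 and 16 without AAV8-TBG-GFP replicates 1, 2 and 3, and 928, 0 and 17 without AAV8-TBG-Cre replicates 1, 2 and 3. At the unadjusted threshold, 1618 genes were higher and 1129 lower, but 1922 and 737 after upper quartile scaling and 1880 and 365 in limma on log2(FPKM + 1).

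Same-numbered livers did not consistently deviate together (r of 0.009, -0.263 and 0.209), but so few values cannot show whether the replicate numbers pair the samples. With a replicate block, 7 genes passed the adjusted threshold, 0 of them among the 10, and not every library correlated best with its own number. Depth limits Mettl14 most, with 101 to 131 reads per library.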
